A study of Homo sapiens with 6 samples.

Results

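The short, 18 kDa form of fibroblast growth factor 2 (FGF2) was compared with an empty vector in T47D-YA cells, a human breast cancer line, by RNA sequencing. The comparison takes 4 of the 6 libraries of the study, 2 from cells that overexpress 18 kDa FGF2 and 2 from cells with the empty vector, which the labels name as the control, and covers all 23459 genes of the count table. The other 2 libraries, from cells that overexpress the 22.5 kDa isoform, entered the same fit and are used below only where they show what differs between the isoforms. T47D-YA is a derivative of the luminal line T47D that carries the A form of the progesterone receptor, so all groups share that background. The labels give no drug or hormone treatment, no time after transfer of the vector and no promoter, and do not say whether a group is a pool or a clone.

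FGF2 binds receptor tyrosine kinases (FGFR1 to FGFR4) together with heparan sulfate chains on syndecans and glypicans. The receptors signal through the adaptors FRS2 and GAB1 or GAB2 to RAS and the kinase ERK, which switches on immediate early genes such as EGR and FOS and then its own inhibitors, the DUSP phosphatases and Sprouty proteins. Cells release the 18 kDa isoform, while the longer isoforms begin at upstream codons and are found mostly in the nucleus. In hormone-dependent breast cancer, FGF signalling is studied for its cross-talk with the estrogen and progesterone receptors.

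Of the 23459 genes, 5136 had no count in any library and 13124 were tested. The empty vector libraries held 5317687 and 5413904 counts and the 18 kDa libraries 6817324 and 5670206. Replicates were compared by chi-square over degrees of freedom, which is near 1 for counting noise alone: it was 6.20 in the empty vector group and 14.3 in the 18 kDa group. Levels below are CPM, counts scaled to a common library size, with replicate 1 before replicate 2. CPM do not account for gene length, so levels are compared between libraries and not between genes. A gene passed when its adjusted p was under 0.05 in edgeR's quasi-likelihood test, and log2 fold changes are 18 kDa FGF2 minus empty vector. A value moved when leaving out 1 library changed it by more than 1.5 times. Intervals beside ratios of summed counts are exact 95% intervals for counting error only.

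Luminal markers were present in all libraries, with KRT8 at 6825 and 9579.6 CPM (empty vector) and 11213 and 10606 CPM (18 kDa FGF2), and 2 of 18 of them were lower (XBP1 and CLDN3), where 8.88% of all tested genes passed in either direction. CLDN3 did not pass without empty vector replicate 1 (adjusted p = 0.287), 2 (0.203) or 18 kDa replicate 1 (0.331). In the luminal list 4 passed without 18 kDa replicate 1. Of the defining markers of other cells, PTPRC (leukocytes), PECAM1 (endothelium), KRT5 (basal cells) and FAP (fibroblasts) had at most 0.179 CPM in any of the 4 libraries, but other members of these lists were detected and some changed. Basal and myoepithelial markers summed to 157 and 147 CPM (empty vector) and 312 and 216 CPM (18 kDa FGF2), with 2 of 8 tested higher (LAMB3 and TRIM29) and 2 lower (TAGLN and LAMA3). Endothelial markers summed to 111 and 112 CPM (empty vector) and 182 and 221 CPM (18 kDa FGF2), most of it EGFL7, with 2 of 4 tested higher (EGFL7 and VWF) and 1 lower (KDR); 0 of these passed without empty vector replicate 1. Fibroblast markers summed to 84.8 and 69.6 CPM (empty vector) and 56.2 and 57.8 CPM (18 kDa FGF2), with 1 of 5 tested lower (THY1). Adipocyte markers summed to 42 and 40.9 CPM (empty vector) and 26.2 and 23.4 CPM (18 kDa FGF2), with 2 of 4 tested lower (PLIN4 and LPL); 1 passed without empty vector replicate 1 or 2. Leukocyte markers summed to 15.4 and 15.2 CPM (empty vector) and 16.7 and 11.8 CPM (18 kDa FGF2), and neither of the 2 tested passed. What part other cells have in the results was not tested.

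Cells with 18 kDa FGF2 had lower levels of the progesterone and estrogen receptors, of estrogen-regulated genes such as GREB1 and CA12, of FGFR1 and of early response genes such as EGR3 and NR4A1. They had higher levels of the keratin KRT10, of clusterin and of the chemokine CCL2. In all, 1165 genes (8.88% of those tested) passed, 537 higher (4.09%) and 628 lower (4.79%). These shares are the background for each count of list members below. Of the lower genes 267 fell by more than 4-fold, against 105 of the higher genes. With the 23 lower genes that had no count in 18 kDa FGF2 set at a floor of 3 counts per library, 265 did. In reads, the order was the other way, since the higher genes together gained 37276 CPM and the lower genes lost 23308 CPM. The 22 lower gamma protocadherins, with nearly the same counts, enter the 628 and the loss separately. So do NBL1 and its readthrough gene and, among the higher genes, SSX2 and SSX2B. None of the 1165 genes overlapped between the groups, but 52% of all tested genes did not overlap either, so that separation says little with 2 libraries a group. The median log2 fold change over all tested genes was -0.05. Only 617 genes passed without empty vector replicate 1 and 665 without empty vector replicate 2. In bulk RNA, fewer cells that make a transcript and less of it per cell cannot be told apart.

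**Figure D1:**
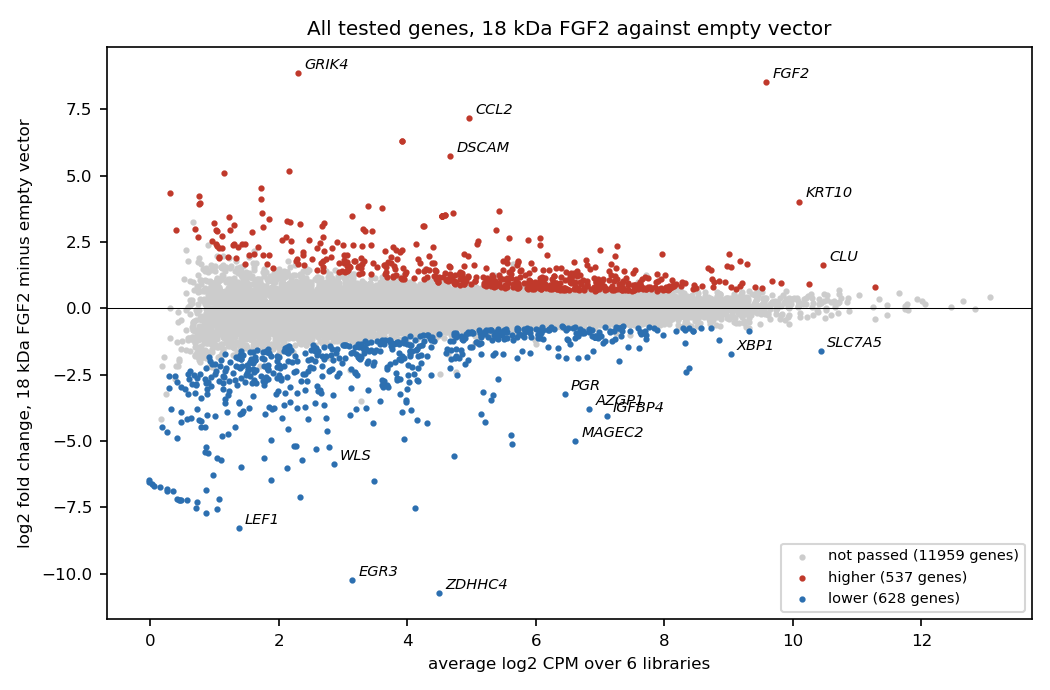
Log2 fold change of each of 13124 tested genes (vertical axis, 18 kDa FGF2 minus empty vector) against its average log2 CPM over 6 libraries (horizontal axis), with the 537 higher genes in red, the 628 lower genes in blue and all others in grey. FGF2 and KRT10 stand apart among abundant genes, and the lowest points include genes with no count in 18 kDa FGF2, whose plotted values depend on the count that the fit adds to 0.

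FGF2 itself (Entrez 2247) went from 2.15 and 2.44 to 961 and 767 CPM, a log2 fold change of 8.55 (SE 0.36, adjusted p = 1.18e-14). Counts per gene do not separate the introduced sequence from the endogenous transcript. The other FGF ligands were scarce: of 22, 11 had no count in any library, and FGF2, FGF11 and FGF13 alone could be tested. FGF11, an intracellular member of the family, was at 19.3 and 20.8 CPM (empty vector) and 15 and 11.2 CPM (18 kDa FGF2) and did not pass (-0.61, SE 0.34, adjusted p = 0.333). NUDT6, which is transcribed from the opposite strand of the FGF2 locus, was at 2.15 and 3.19 CPM (empty vector) and 1.07 and 1.05 CPM (18 kDa FGF2). It did not pass either (-1.30, SE 0.59, adjusted p = 0.208), and reads from opposite strands cannot be told apart here, because no source used gives the strand setting.

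The receptors and most of the co-receptors that passed were lower. Receptors and heparan sulfate co-receptors (24 genes) had 15 tested members, of which 1 passed higher and 5 lower, and a median log2 fold change of -0.56. FGFR1, which is amplified in some breast cancers, fell from 53.1 and 53.3 to 20.3 and 18.1 CPM (-1.47, SE 0.27, adjusted p = 0.000506). FGFR3 went from 32 and 32.1 to 14.3 and 12.8 CPM (-1.24, SE 0.29, adjusted p = 0.00609). FGFR4 went from 37.2 and 34.5 to 18.1 and 17.9 CPM (-0.99, SE 0.29, adjusted p = 0.0321). Both replicates of a group lay close together for these receptors. FGFR3 did not pass without empty vector replicate 1 (adjusted p = 0.0591) or 2 (0.062). FGFR4 did not pass without empty vector replicate 1 (adjusted p = 0.256), 2 (0.149), 18 kDa replicate 1 (0.0893) or 2 (0.0717). FGFR2 was at 5.01 and 3.38 CPM (empty vector) and 1.69 and 1.76 CPM (18 kDa FGF2) and did not pass (-1.28, SE 0.53, adjusted p = 0.16).

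Syndecans, the membrane proteoglycans that hold FGF2 near its receptors, moved in both directions. SDC1, the main epithelial syndecan, rose from 313 and 265 to 950.4 and 753 CPM (1.56, SE 0.24, adjusted p = 6.29e-05). The 24 tested genes around it on chromosome 2 had a median log2 fold change of 0.66, and what share of its rise goes with that neighbourhood was not tested. SDC2, another syndecan, fell from 12.9 and 12.2 to 0.614 and 1.23 CPM (-3.76, SE 0.52, adjusted p = 1.73e-05). The glypican GPC4 fell from 13.8 and 14.8 to 3.38 and 1.76 CPM (-2.45, SE 0.43, adjusted p = 0.000391). SDC4 was at 489.5 and 522 CPM (empty vector) and 407 and 280.4 CPM (18 kDa FGF2) and did not pass (adjusted p = 0.144). The glypican GPC1, at 98 and 105 CPM (empty vector) and 93.3 and 90.3 CPM (18 kDa FGF2), did not pass either (adjusted p = 0.765).

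The enzymes that build and trim heparan sulfate had 18 tested members, of which 0 passed higher and 2 lower, and a median log2 fold change of -0.18. Their share of calls, 11.1%, is near that of all genes, 8.88%. The sulfatase SULF2, which removes sulfate groups from the chains, went from 2.15 and 4.13 to 0.46 and 0.351 CPM. Heparanase HPSE, which cuts the chains, went from 6.79 and 6.75 to 0.921 and 2.99 CPM. SULF2 did not pass without empty vector replicate 2 (adjusted p = 0.155) or 18 kDa replicate 2 (0.0508). HPSE did not pass without empty vector replicate 1 (adjusted p = 0.0687), 2 (0.0557), 18 kDa replicate 1 (-1.15, adjusted p = 0.253) or 22.5 kDa replicate 2 (0.0703), and its value moved without 18 kDa replicate 2 (-2.80).

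Adaptors and kinases downstream of the receptors (31 genes) had 28 tested members, of which 1 passed higher and 2 lower, and a median log2 fold change of -0.20. Their share of calls, 10.7%, is near the 8.88% of all genes. Without 18 kDa replicate 2, 7 of them passed. GAB2, a docking protein that links receptors to PI3K and RAS signalling, fell from 29.3 and 31.7 to 5.22 and 2.46 CPM (-2.97, SE 0.41, adjusted p = 1.71e-05; -3.60 without 18 kDa replicate 1). ARAF, a RAF kinase on chromosome X, rose from 81.9 and 89.9 to 194 and 179 CPM (1.12, SE 0.22, adjusted p = 0.00147), among neighbours with a median of 0.98. FRS2, the adaptor that FGF receptors bind directly, went from 23.4 and 9.01 to 3.84 and 7.03 CPM (-1.58, SE 0.46, adjusted p = 0.0381). Its empty vector libraries differed more from each other than replicate 2 differed from 18 kDa FGF2. FRS2 did not pass without empty vector replicate 1 (-0.74, adjusted p = 0.713), 18 kDa replicate 1 (0.177), 22.5 kDa replicate 1 (0.0737) or 2 (0.102). The ERK gene MAPK3 was at 144 and 129 CPM (empty vector) and 177 and 164 CPM (18 kDa FGF2) and did not pass (adjusted p = 0.446).

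Feedback inhibitors of ERK had 19% of their tested members called, all lower (21 tested, 0 higher and 4 lower, median log2 fold change -0.30; 2 passed without empty vector replicate 1). Of all tested genes, 8.88% passed in either direction and 4.79% passed lower. DUSP4, a nuclear phosphatase of ERK, fell from 8.22 and 9.94 to 0.921 and 0.351 CPM (-3.76, SE 0.57, adjusted p = 6.29e-05). PHLDA1, an early response gene of receptor kinases, fell from 10 and 11.8 to 2.61 and 2.11 CPM (-2.19, SE 0.46, adjusted p = 0.00231). DUSP5, a phosphatase that acts on nuclear ERK, fell from 59.7 and 55.3 to 31.3 and 22.5 CPM (-1.09, SE 0.27, adjusted p = 0.00859). DUSP2, a related phosphatase, fell from 15.9 and 19.3 to 7.06 and 7.55 CPM (-1.27, SE 0.38, adjusted p = 0.0342). DUSP4's value moved without 18 kDa replicate 1 (-4.58). DUSP5 did not pass without empty vector replicate 1 (adjusted p = 0.0881) or 18 kDa replicate 2 (0.0739). DUSP2 did not pass without empty vector replicate 1 (adjusted p = 0.107), 2 (0.271), 18 kDa replicate 1 (0.115), 2 (0.0649) or 22.5 kDa replicate 2 (0.0541). DUSP6, the cytoplasmic ERK phosphatase often used as an FGF readout, was at 14.1 and 11.3 CPM (empty vector) and 6.29 and 6.5 CPM (18 kDa FGF2) and did not pass (-0.99, SE 0.39, adjusted p = 0.126). The Sprouty gene SPRY2 was at 6.79 and 4.5 CPM (empty vector) and 7.83 and 8.43 CPM (18 kDa FGF2) and SPRY4 at 6.79 and 11.3 CPM (empty vector) and 7.21 and 5.27 CPM (18 kDa FGF2). Neither passed (adjusted p = 0.543 and 0.532).

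Immediate early and PEA3 transcription factors had 27.3% called, against 8.88% of all genes, also all lower (22 tested, 0 higher and 6 lower, median log2 fold change -0.19). EGR3, an early response factor that estrogen also induces, went from 18.8 and 33.2 to 0 and 0 CPM. Against a floor of 3 counts per library it was at least 52.6-fold lower. NR4A1, an orphan nuclear receptor induced within minutes of many stimuli, fell from 93.5 and 62.1 to 25.8 and 23.2 CPM (-1.67, SE 0.26, adjusted p = 9.21e-05). KLF4, a zinc finger factor, fell from 13.6 and 16.5 to 4.76 and 3.34 CPM (-1.88, SE 0.42, adjusted p = 0.00374). EGR1 fell from 5.01 and 8.63 to 1.23 and 2.46 CPM (-1.89, SE 0.50, adjusted p = 0.0154). FOS fell from 5.19 and 6.75 to 2.15 and 1.58 CPM (-1.66, SE 0.50, adjusted p = 0.0356). The PEA3 factor ETV4 fell from 47.9 and 42.2 to 24.6 and 14.6 CPM (-1.20, SE 0.29, adjusted p = 0.00796). EGR1 did not pass without empty vector replicate 2 (adjusted p = 0.227), 18 kDa replicate 1 (0.155) or 22.5 kDa replicate 2 (0.0505). FOS did not pass without empty vector replicate 1 (adjusted p = 0.0632), 2 (0.209), 18 kDa replicate 1 (0.0694), 2 (0.131) or 22.5 kDa replicate 2 (0.0521). ETV4 did not pass without empty vector replicate 1 (adjusted p = 0.109) or 18 kDa replicate 2 (0.0899). MYC was at 32.2 and 31 CPM (empty vector) and 30.8 and 39 CPM (18 kDa FGF2), with an adjusted p of 0.812. JUN and ETV5 did not pass either (adjusted p = 0.684 and 0.645).

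EGR proteins bind the motif GCGTGGGCG. The named genes were searched for it, on both strands, in the 250 bases before the start of the gene in the RefSeq table (build GRCh38.p14). THBS1 and TGFB1, matrix and growth factor genes that were both lower, held a match, and their upstream sequences are shown 5′ to 3′ on the strand of the gene with the match in capitals, which in TGFB1 is the reverse complement. The THBS1 sequence is chr15:39580829-39581078 on the plus strand and the TGFB1 sequence chr19:41353923-41354172 on the minus strand.
THBS1: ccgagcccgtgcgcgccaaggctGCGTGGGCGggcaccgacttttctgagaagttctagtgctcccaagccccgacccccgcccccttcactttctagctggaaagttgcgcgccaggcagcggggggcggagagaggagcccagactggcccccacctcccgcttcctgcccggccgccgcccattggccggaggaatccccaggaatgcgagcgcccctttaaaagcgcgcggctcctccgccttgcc
TGFB1: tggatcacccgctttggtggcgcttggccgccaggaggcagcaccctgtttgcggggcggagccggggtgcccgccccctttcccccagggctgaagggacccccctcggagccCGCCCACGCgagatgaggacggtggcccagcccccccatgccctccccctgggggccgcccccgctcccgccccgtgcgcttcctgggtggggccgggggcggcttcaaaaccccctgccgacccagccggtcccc
Of 10402 tested genes with a promoter entry, 134 (1.29%) held the motif within 300 bases, and 12 of these passed, 8 lower and 4 higher. Their share of calls was 8.96%, against 8.88% of all tested genes, with or without an entry. Of the 10402 genes with an entry, 417 passed higher and 464 lower. The table has an entry for 79.3% of the tested genes, so a comparison of passing shares by motif is void, and a match is a description and not a site of binding.

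**Figure D2:**
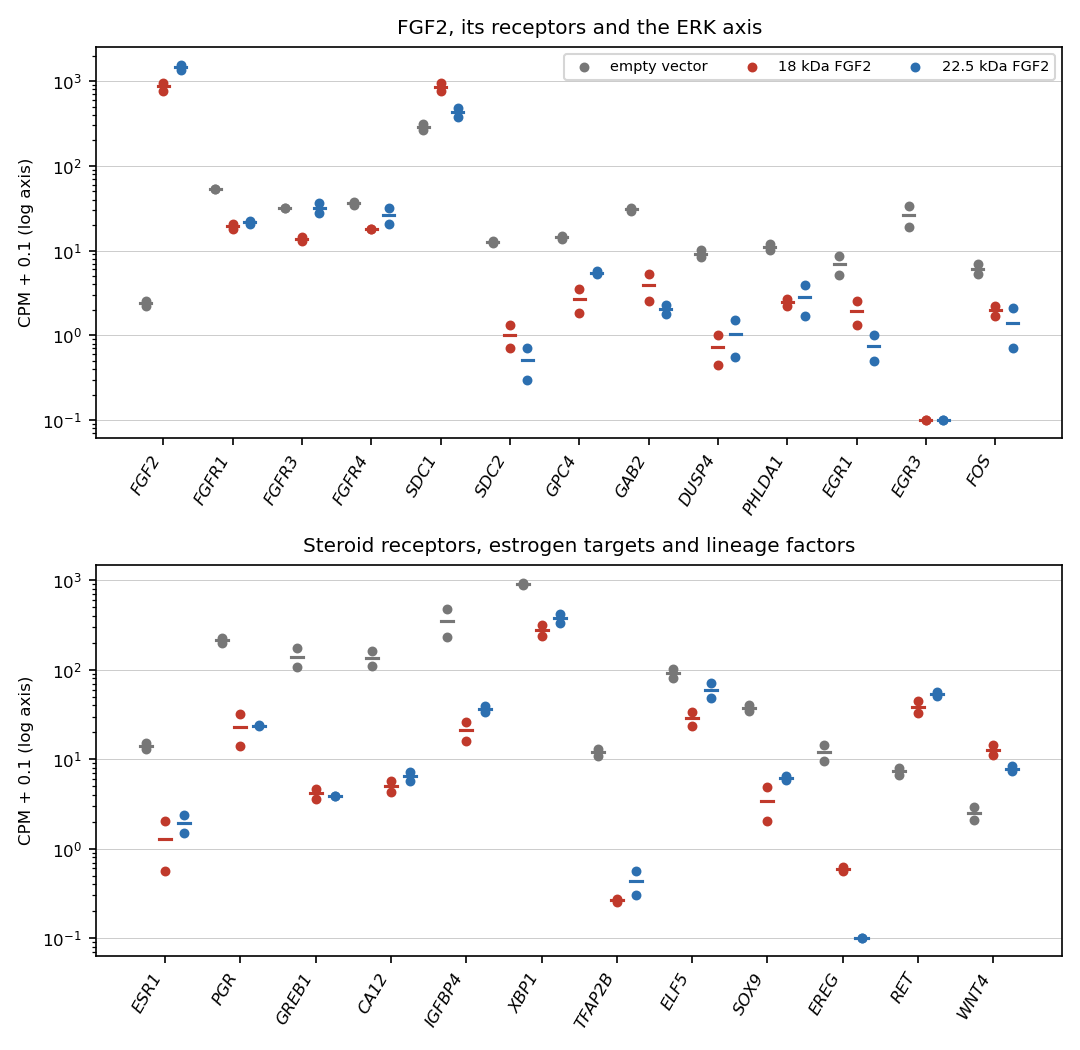
CPM plus 0.1 (log axis) of each library for FGF2, its receptors and ERK axis genes (upper panel) and for steroid receptors, estrogen targets and lineage factors (lower panel), with a bar at the mean of each group of 2. FGF2 lies far above the empty vector in both isoform groups, EGR3 is at 0 in all 4 FGF2 libraries, and PGR and ESR1 lie below the empty vector.

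The progesterone and estrogen receptors, nuclear receptors that mark luminal tumours, were lower. PGR fell from 228 and 202 to 14.1 and 31.6 CPM (-3.24, SE 0.31, adjusted p = 9.77e-06). ESR1 fell from 13.1 and 15 to 0.46 and 1.93 CPM (-3.57, SE 0.53, adjusted p = 4.63e-05). The replicates of 18 kDa FGF2 lay far apart for both receptors. PGR's value moved without 18 kDa replicate 2 (-3.88). ESR1's value moved without 18 kDa replicate 1 (-2.82) or 2 (-4.82). Counts do not distinguish the introduced progesterone receptor from PGR of the cell's own. NR3C1, the glucocorticoid receptor, had no count in any of the 6 libraries, which allows up to 3 counts per library.

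The orphan receptor NR4A1, lower as given above, was counted with the early genes, as were NR4A2 and NR4A3. The list of other nuclear receptors had 24 tested members, of which 3 passed higher and 2 lower, and a median log2 fold change of 0.03. Without empty vector replicate 2, 3 of them passed. The adipogenic receptor PPARG rose from 3.22 and 1.13 to 8.13 and 7.91 CPM (1.87, SE 0.48, adjusted p = 0.0124). The thyroid hormone receptor THRB rose from 9.48 and 8.82 to 17.8 and 22 CPM (1.12, SE 0.35, adjusted p = 0.0419). PPARG did not pass without empty vector replicate 2 (adjusted p = 0.279), and its value moved without empty vector replicate 1 (2.81). THRB did not pass without empty vector replicate 1 (adjusted p = 0.255), 2 (0.289), 18 kDa replicate 2 (0.0954) or 22.5 kDa replicate 2 (0.0521).

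The pioneer factors that open chromatin for these receptors did not pass. FOXA1 was at 345 and 259 CPM (empty vector) and 296 and 192 CPM (18 kDa FGF2) (adjusted p = 0.512). GATA3 was at 624 and 685 CPM (empty vector) and 741 and 623 CPM (18 kDa FGF2) (adjusted p = 0.914). Co-regulators, chaperones and pioneer factors had 26 tested members, of which 0 passed higher and 4 lower, and a median log2 fold change of -0.21. TFAP2B, an AP-2 factor of luminal cells, went from 12.9 and 10.9 to 0.153 and 0.176 CPM. Its 130 and 2 counts make it 72.6-fold lower (interval 19.7 to 606, adjusted p = 6.18e-07). FKBP5, a co-chaperone of steroid receptors that progestins and androgens induce, fell from 111 and 98.9 to 33 and 43.2 CPM (-1.46, SE 0.23, adjusted p = 8.81e-05).

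Estrogen-regulated genes were among the lists with the highest share of calls, at 44.4% against 8.88% of all genes (27 tested, 2 higher and 10 lower, median log2 fold change -0.40). Since earlier results on these samples were known when this list was chosen, its share is a description. The list includes PGR, whose counts do not separate the introduced receptor from the cell's own. GREB1, an estrogen receptor target and cofactor, fell from 106 and 175 to 3.53 and 4.57 CPM (-5.12, SE 0.32, adjusted p = 4.01e-11). The carbonic anhydrase CA12 fell from 109 and 161 to 5.68 and 4.22 CPM (-4.76, SE 0.30, adjusted p = 6.35e-11). IGFBP4, a binding protein of insulin-like growth factors, fell from 232 and 478 to 26.2 and 16 CPM (-4.06, SE 0.38, adjusted p = 6.03e-05; -3.45 without empty vector replicate 2). XBP1, a transcription factor of secretory cells, fell from 896 and 942 to 318 and 236 CPM (-1.73, SE 0.24, adjusted p = 1.71e-05). RET, the receptor of GDNF ligands, went the other way, from 6.62 and 7.88 to 44.5 and 33 CPM (2.42, SE 0.29, adjusted p = 3.3e-06). The glycoprotein STC2 rose from 54.9 and 57 to 101 and 90.1 CPM (0.77, SE 0.22, adjusted p = 0.03). STC2 did not pass without empty vector replicate 1 (adjusted p = 0.282), 2 (0.194) or 18 kDa replicate 1 (0.0963). CCND1, the cyclin that drives G1, was at 165 and 159.7 CPM (empty vector) and 173 and 153 CPM (18 kDa FGF2) and did not pass (0.01, SE 0.21, adjusted p = 0.991).

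Progestin-regulated and androgen-regulated genes moved both ways. Of 21 tested progestin and glucocorticoid regulated genes, 47.6% passed against 8.88% of all genes, 3 higher and 7 lower. As for the estrogen list, this share is a description. The median log2 fold change of the list was -0.04, close to the median of all genes. ELF5, the alveolar factor that progestins induce in the breast, fell from 103 and 80.7 to 23.5 and 33.6 CPM (-1.69, SE 0.25, adjusted p = 7.28e-05). WNT4, a progestin-induced ligand, rose from 1.97 and 2.81 to 11 and 14.4 CPM (2.40, SE 0.44, adjusted p = 0.000516). Endothelin EDN1, a vasoactive peptide, rose from 21.8 and 11.4 to 102 and 74 CPM (2.40, SE 0.31, adjusted p = 0.000159). Androgen-regulated and apocrine genes had 17 tested members, of which 4 passed higher and 2 lower (35.3%), and a median log2 fold change of 0.05. The secreted glycoprotein AZGP1 fell from 289.7 and 298 to 16.9 and 25.6 CPM (-3.79, SE 0.26, adjusted p = 1.4e-10). APOD, a lipocalin, rose from 210.1 and 203 to 579.8 and 614 CPM (1.53, SE 0.31, adjusted p = 0.00617). The mitochondrial dehydrogenase DHRS2 rose from 23.8 and 19.1 to 98.5 and 156 CPM (2.57, SE 0.32, adjusted p = 0.000149).

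In the Wnt pathway, single members changed strongly and calls went both ways (25 tested, 3 higher and 3 lower, median log2 fold change -0.19; 3 passed without empty vector replicate 1, 3 without empty vector replicate 2). WLS, the carrier that brings Wnt ligands to the cell surface, fell from 21.6 and 19.1 to 0.46 and 0.176 CPM (-5.87, SE 0.57, adjusted p = 1.26e-07; -6.67 without 18 kDa replicate 1). Those 25 are Wnt ligands, receptors and modulators, among them WLS. The beta-catenin destruction complex, TCF factors and targets were a separate list of 29 tested members, 1 higher and 3 lower. Its share of calls was 13.8%, against 8.88% of all genes, and its median log2 fold change was -0.11. The genes that follow belong to that second list. LEF1, a transcription factor that works with beta-catenin, went from 4.65 and 8.82 to 0 and 0 CPM, at least 13.6-fold lower. SOX9, a progenitor factor and Wnt target, fell from 34.9 and 40 to 4.76 and 1.93 CPM (-3.46, SE 0.40, adjusted p = 1.9e-06; -4.23 without 18 kDa replicate 1). RNF43, a ligase that removes Wnt receptors, rose from 55.8 and 37 to 125 and 114 CPM (1.36, SE 0.23, adjusted p = 0.000217). CTNNB1, beta-catenin itself, was at 164 and 129.6 CPM (empty vector) and 105 and 167 CPM (18 kDa FGF2) and did not pass (-0.11, SE 0.26, adjusted p = 0.866). Its sign changed to 0.07 without empty vector replicate 1 and to 0.21 without 18 kDa replicate 1. The target AXIN2, at 2.32 and 2.63 CPM (empty vector) and 1.38 and 1.05 CPM (18 kDa FGF2), did not pass either (adjusted p = 0.324).

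Other growth factor pathways had members that passed in both directions. The EGF family had 17 tested members, of which 1 passed higher and 2 lower, and a median log2 fold change of -0.27 (1 passed without empty vector replicate 1, 1 without 18 kDa replicate 1). Epiregulin EREG, a ligand of the EGF receptor, fell from 14.3 and 9.57 to 0.46 and 0.527 CPM (-4.54, SE 0.56, adjusted p = 6.03e-06). The receptor ERBB2 rose from 395 and 402 to 892 and 667 CPM (0.97, SE 0.24, adjusted p = 0.00859). ERBB2 did not pass without empty vector replicate 1 (adjusted p = 0.127), 2 (0.103) or 18 kDa replicate 1 (0.103). The TGF-beta and BMP list had 40 tested members, of which 4 passed higher and 1 lower, and a median log2 fold change of -0.05 (3 passed without empty vector replicate 2). LTBP1, which stores TGF-beta in the matrix, rose from 67.6 and 66.2 to 259 and 171 CPM (1.68, SE 0.23, adjusted p = 1.73e-05; neighbours 0.41). TGFB1 itself fell from 98.5 and 99.4 to 49.4 and 36.5 CPM (-1.20, SE 0.24, adjusted p = 0.00161). Calls made up 12.5% of the TGF-beta and BMP list, against 8.88% of all genes.

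Notch genes had 27 tested members, of which 1 passed higher and 2 lower, and a median log2 fold change of -0.37. Calls made up 11.1% of them, near the 8.88% of all genes. LFNG, the glycosyltransferase that tunes Notch receptors, fell from 49.3 and 76 to 3.53 and 4.39 CPM (-3.98, SE 0.34, adjusted p = 2.18e-08). It lies at the start of chromosome 7, in a stretch of lower medians described below, and what share of its fall goes with that stretch was not tested. The ligase DTX4 fell from 59.5 and 71.7 to 7.67 and 5.97 CPM (-3.26, SE 0.28, adjusted p = 1.61e-08). The receptors NOTCH1, NOTCH2 and NOTCH3 did not pass (adjusted p = 0.831, 0.631 and 0.386). Of 21 tested Hippo genes, 0 passed with edgeR (4 had an unadjusted p under 0.05), 0 with DESeq2 and 0 with limma-voom, with a median of -0.19. Without 22.5 kDa replicate 2, 1 Hippo gene passed.

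Insulin and IGF genes had 17 tested members, of which 2 passed higher and 5 lower, and a median log2 fold change of -0.43. Without empty vector replicate 1, 4 of them passed. IRS1, the docking protein of the insulin and IGF1 receptors, went from 3.58 and 3.56 to 0.46 and 0 CPM. Its counts, 39 and 3 in all, make it 14.5-fold lower (interval 4.62 to 73.5, adjusted p = 0.00104). All 3 counts were in 18 kDa replicate 1. Its log2 fold change moved from -3.76 to -2.85 without 18 kDa replicate 2 and to -7.32 without replicate 1, where the library left is at 0 and the fitted value is no bound. IGF2BP2, an RNA-binding protein, fell from 22.9 and 31 to 8.44 and 7.2 CPM (-1.78, SE 0.35, adjusted p = 0.00113). IGF1R was at 45.2 and 57 CPM (empty vector) and 87.3 and 63.2 CPM (18 kDa FGF2) and did not pass (adjusted p = 0.147). Cytokine and JAK-STAT genes had 35 tested members, of which 2 passed higher and 5 lower, and a median log2 fold change of -0.22 (4 passed without empty vector replicate 1, 3 without empty vector replicate 2). IL4R, the interleukin-4 receptor, fell from 16.6 and 27.4 to 6.29 and 3.51 CPM (-2.15, SE 0.41, adjusted p = 0.000867). The signalling inhibitor SOCS1 rose from 1.97 and 1.5 to 8.59 and 11.2 CPM (2.50, SE 0.47, adjusted p = 0.000704).

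Among mammary lineage factors, calls went both ways (45 tested, 6 higher and 5 lower, median log2 fold change 0.07). In this list 6 passed without empty vector replicate 1, 4 without empty vector replicate 2, 5 without 18 kDa replicate 1, 7 without 22.5 kDa replicate 2. The homeobox gene HOXB2 rose from 20.9 and 15.2 to 69.5 and 51.5 CPM (1.74, SE 0.25, adjusted p = 3.75e-05). The keratin list had 2 calls of 10 tested, both higher. KRT40, a keratin outside that list, also passed higher (5.09, adjusted p = 0.00344). Its value moved without empty vector replicate 1 (7.49), 2 (4.27) or 18 kDa replicate 2 (4.50). KRT10, a keratin of differentiating epidermis, rose from 92.6 and 107 to 1605 and 1653 CPM (4.03, SE 0.26, adjusted p = 8.82e-11), the second largest gain in CPM among the genes that passed. KRT24 went from 17 and 15.8 to 32.1 and 35.1 CPM (1.04, SE 0.29, adjusted p = 0.0225). KRT24 did not pass without empty vector replicate 1 (adjusted p = 0.177) or 2 (0.231). The luminal keratins KRT8, with the levels given above, and KRT18, at 5483 and 7023 CPM (empty vector) and 7455 and 5378 CPM (18 kDa FGF2), did not pass (adjusted p = 0.457 and 0.959).

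Laminins and integrins changed in a mixed way (22 tested, 3 higher and 4 lower, median log2 fold change -0.07). Their share of calls was 31.8%, against 8.88% of all genes. LAMB3, a chain of laminin-332, rose from 53.8 and 44.8 to 239 and 154 CPM (1.99, SE 0.24, adjusted p = 2.61e-06). LAMA3, which pairs with it, fell from 4.47 and 6.38 to 0.307 and 0.351 CPM (-3.96, SE 0.63, adjusted p = 0.000106). The leukocyte-type integrin chain ITGB7 fell from 21.3 and 18.9 to 3.99 and 3.51 CPM (-2.41, SE 0.40, adjusted p = 0.000177). ITGB6, an epithelial chain, rose from 2.86 and 3.94 to 13 and 23 CPM (2.40, SE 0.43, adjusted p = 0.000416). The junction list had 31 tested members, of which 2 passed higher and 4 lower, and a median log2 fold change of -0.28 (2 passed without empty vector replicate 2). Placental cadherin CDH3 rose from 47.9 and 52.5 to 190.5 and 121 CPM (1.63, SE 0.24, adjusted p = 3.34e-05). CDH1, the epithelial cadherin, was at 843 and 982 CPM (empty vector) and 1054 and 770.2 CPM (18 kDa FGF2) and did not pass (adjusted p = 0.999).

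Clustered protocadherins, adhesion genes in a tandem array on chromosome 5, had the highest share of lower calls of the 49 lists, with 38 tested members, of which 0 passed higher and 26 lower, and a median log2 fold change of -1.06. All 22 tested gamma genes passed with almost equal log2 fold changes, -1.09 to -1.05, and with nearly the same counts in each library. PCDHGA1 was at 189 and 193 CPM (empty vector) and 104 and 78.9 CPM (18 kDa FGF2) and PCDHGB7 at 189 and 194 CPM (empty vector) and 104 and 78.5 CPM (18 kDa FGF2). The gamma genes share their last exons, so these are in effect 1 measurement and the value of any single gamma gene is uncertain. In the beta cluster, whose genes have 1 exon each, PCDHB5 fell from 30.9 and 28 to 6.75 and 7.55 CPM (-2.04, SE 0.36, adjusted p = 0.000339). Against a minimum fold of 1.5, 3 of the 26 remained.

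More matrix genes passed lower than higher (27 tested, 1 higher and 5 lower, median log2 fold change -0.68). In this list 22.2% were called, against 8.88% of all genes. Fibronectin FN1 fell from 27.9 and 31.7 to 4.45 and 6.68 CPM (-2.42, SE 0.37, adjusted p = 7.71e-05). Thrombospondin THBS1, whose upstream sequence is printed above, fell from 13.2 and 29.6 to 1.07 and 1.58 CPM (-4.00, SE 0.69, adjusted p = 0.00306; -3.30 without empty vector replicate 2). Biglycan BGN, a matrix proteoglycan, fell from 4.29 and 7.5 to 0.767 and 0.703 CPM (-2.96, SE 0.55, adjusted p = 0.000624). The collagen COL6A1 fell from 17 and 33.4 to 4.6 and 6.15 CPM (-2.23, SE 0.38, adjusted p = 0.00028). Vimentin VIM was at 2.68 and 2.44 CPM (empty vector) and 1.23 and 2.99 CPM (18 kDa FGF2) and did not pass (adjusted p = 0.813).

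Proteases and their inhibitors had 37 tested members, of which 6 passed higher and 5 lower, and a median log2 fold change of 0.05 (7 passed without empty vector replicate 2). The urokinase PLAU rose from 5.9 and 5.07 to 37.1 and 21.4 CPM (2.41, SE 0.39, adjusted p = 0.000143). The tissue plasminogen activator PLAT fell from 4.83 and 5.63 to 0.46 and 0.176 CPM (-3.91, SE 0.64, adjusted p = 0.000151; -4.70 without 18 kDa replicate 1). TIMP1, an inhibitor of metalloproteinases on chromosome X, rose from 23.8 and 25.3 to 66.3 and 49.7 CPM (1.24, SE 0.25, adjusted p = 0.0017) among neighbours with a median of 1.00.

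Chemokines, cytokines and complement genes included some of the steepest changes (28 tested, 3 higher and 4 lower, median log2 fold change -0.03). The chemokine CCL2, which draws monocytes, rose from 0.179 and 0.563 to 70.6 and 42.3 CPM (7.19, SE 0.48, adjusted p = 1.35e-10). It was at 6.60 and 8.15 without empty vector replicate 1 and 2. Clusterin CLU, a secreted chaperone, rose from 734 and 864 to 2655 and 2334 CPM (1.64, SE 0.24, adjusted p = 5.04e-05), the largest gain in CPM among the genes that passed. C5AR2, a receptor of complement C5a, went from 8.4 and 10.1 to 0.153 and 0 CPM. Its counts, 101 and 1 in all, make it 113-fold lower (interval 19.8 to 4502, adjusted p = 2.05e-06). Its log2 fold change moved from -6.49 to -5.68 without 18 kDa replicate 2 and to -8.69 without replicate 1, where the library left is at 0. PDGFC, a growth factor, fell from 11.3 and 8.63 to 0.614 and 1.58 CPM (-3.18, SE 0.54, adjusted p = 0.000222; -3.93 without 18 kDa replicate 2).

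Antigen presentation genes had 28 tested members, of which 1 passed higher and 2 lower, and a median log2 fold change of -0.55 (1 passed without empty vector replicate 2, 7 without 18 kDa replicate 2). Calls made up 10.7% of the tested members, near the 8.88% of all genes. CD74, the invariant chain of MHC class II, fell from 58.6 and 89.1 to 2.76 and 4.92 CPM (-4.27, SE 0.33, adjusted p = 2.75e-09). The class I gene HLA-B was at 1294 and 1293 CPM (empty vector) and 1037 and 919 CPM (18 kDa FGF2) and did not pass (-0.40, SE 0.23, adjusted p = 0.339). Interferon response genes had 15% called, all lower (40 tested, 0 higher and 6 lower, median log2 fold change -0.58; 10 passed without empty vector replicate 2). The 15% of the interferon list stands against 8.88% of all genes. The galectin-binding LGALS3BP fell from 355 and 345 to 106 and 144 CPM (-1.49, SE 0.24, adjusted p = 0.000148). IFI6 shows how wide the spread within groups can be, at 141 and 77.5 CPM (empty vector) and 119 and 409 CPM (18 kDa FGF2) (1.27, SE 1.01, adjusted p = 0.604). SLFN11, which acts at stalled replication forks, fell from 11.1 and 14.3 to 1.23 and 3.34 CPM (-2.48, SE 0.47, adjusted p = 0.000862). It was at -1.89 and -3.29 without 18 kDa replicate 1 and 2. SLFN13, another Schlafen gene, went from 4.83 and 5.44 to 0 and 0.176 CPM and was 62.6-fold lower (interval 10.8 to 2516, adjusted p = 4.1e-05). Its log2 fold change moved from -5.63 to -4.68 without 18 kDa replicate 1 and to -7.89 without replicate 2, where the library left is at 0.

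Semaphorins, netrins, Slits and their receptors had 31 tested members, of which 4 passed higher and 3 lower, and a median log2 fold change of -0.12 (4 passed without empty vector replicate 2, 4 without 18 kDa replicate 1). Their share of calls was 22.6%, against 8.88% of all genes. DSCAM, a neural adhesion molecule, rose from 0.536 and 0.75 to 36.2 and 34.6 CPM (5.74, SE 0.43, adjusted p = 9.44e-10). NTN4, a netrin, went from 0.179 and 0.188 to 7.67 and 7.03 CPM and was 40.3-fold higher (interval 10.8 to 338, adjusted p = 1.72e-05). LINGO1, a neural receptor component outside that list, rose from 0.715 and 1.31 to 16.7 and 13.5 CPM (3.88, SE 0.49, adjusted p = 5.54e-06). Glutamate receptors and potassium channels, which include GRIK4 and KCNMB4, were another list of 18 tested members, 3 higher and 4 lower (38.9%). GRIK4, a kainate receptor subunit, went from 0 and 0 to 12 and 8.26 CPM, at least 18.4-fold higher. Ephrins and Eph receptors, also a separate list, had 15 tested members, of which 1 passed higher and 1 lower (13.3%). Ephrin EFNB2, a guidance ligand, fell from 27.2 and 26.6 to 6.45 and 4.57 CPM (-2.28, SE 0.38, adjusted p = 0.000191). The channel subunit KCNMB4 fell from 30.8 and 24.4 to 4.76 and 2.64 CPM (-2.88, SE 0.43, adjusted p = 6.45e-05).

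Cancer-testis genes, normally silent outside the germ line, moved both ways (16 tested, 2 higher and 2 lower, median log2 fold change 0.09). MAGEC2 fell from 267 and 284 to 6.6 and 10.5 CPM (-5.01, SE 0.28, adjusted p = 7.14e-12). MAGEA10 fell from 24.9 and 27.2 to 2 and 4.22 CPM (-3.07, SE 0.42, adjusted p = 1.73e-05). SSX2 went from 0.358 and 0.188 to 30.5 and 16.3 CPM, with counts identical to those of its near-identical copy SSX2B, so the value of either copy is uncertain.

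Among metabolic genes, single members had strong changes. Amino acid genes had 39 tested members, of which 3 passed higher and 6 lower, and a median log2 fold change of -0.16 (4 passed without empty vector replicate 2). SLC7A5, a leucine transporter, had the largest loss in CPM among the genes that passed, from 2687 and 2156 to 912 and 660.4 CPM (-1.62, SE 0.25, adjusted p = 8.43e-05). Its partner chain SLC3A2 fell from 1046 and 852 to 568 and 474 CPM (-0.86, SE 0.23, adjusted p = 0.0181). SLC3A2 did not pass without empty vector replicate 1 (adjusted p = 0.328), 2 (0.0578) or 18 kDa replicate 2 (0.136). The mitochondrial glutaminase GLS2 fell from 53.1 and 61.2 to 11.7 and 8.43 CPM (-2.50, SE 0.31, adjusted p = 3.9e-06). ODC1, which starts polyamine synthesis, rose from 21.6 and 25.1 to 73.8 and 57.3 CPM (1.49, SE 0.26, adjusted p = 0.000279).

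Lipid synthesis genes had 39 tested members, of which 0 passed higher and 4 lower, and a median log2 fold change of -0.23 (2 passed without empty vector replicate 2). Their share of calls, 10.3%, is near the 8.88% of all genes. THRSP, a lipogenic factor, fell from 24.5 and 30.4 to 2.61 and 5.62 CPM (-2.74, SE 0.41, adjusted p = 5.76e-05; -3.33 without 18 kDa replicate 2). Drug metabolism and efflux genes had 31 tested members, of which 5 passed higher and 1 lower, and a median log2 fold change of -0.19. The aldehyde dehydrogenase ALDH2 rose from 229 and 199 to 592 and 575 CPM (1.45, SE 0.22, adjusted p = 7.01e-05). ALDH4A1, a dehydrogenase of proline breakdown, rose from 297 and 278 to 921 and 905 CPM (1.67, SE 0.25, adjusted p = 4.63e-05).

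Proliferation genes gave calls at about the background share. S phase and mitotic genes had 48 tested members, of which 1 passed higher and 3 lower, and a median log2 fold change of -0.27, and their share of calls was 8.33% against 8.88%. In this list 1 passed without empty vector replicate 1, 2 without empty vector replicate 2, 0 without 18 kDa replicate 1, 8 without 18 kDa replicate 2. The proliferation antigen MKI67 fell from 161 and 145 to 66.3 and 97.9 CPM (-0.90, SE 0.23, adjusted p = 0.0116). MKI67 did not pass without empty vector replicate 1 (adjusted p = 0.136) or 18 kDa replicate 1 (0.195). Of 76 tested ribosomal protein genes 2 were higher (2.63%, median 0.26), RPL31 and RPS27A, and none passed without empty vector replicate 1 or 2. RPL31 and RPS27A did not pass without 18 kDa replicate 2 either (adjusted p = 0.152 and 0.216). The nucleolar list had 40 tested members, of which 2 passed higher and 0 lower, and a median log2 fold change of 0.06 (1 passed without empty vector replicate 1, 4 without 18 kDa replicate 1). POLR1A, the largest subunit of RNA polymerase I, rose from 22.5 and 28.3 to 71.8 and 52.7 CPM (1.29, SE 0.25, adjusted p = 0.000903; neighbours 0.47). The share of calls in the nucleolar list was 5%, below the 8.88% of all genes. Of 6 tested metallothioneins, 0 passed with edgeR (3 had an unadjusted p under 0.05), 0 with DESeq2 and 0 with limma-voom. Without empty vector replicate 2 or without 22.5 kDa replicate 1, 1 metallothionein passed.

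Chromatin regulators had 47 tested members, of which 3 passed higher and 5 lower, and a median log2 fold change of -0.17 (5 passed without empty vector replicate 2). The DNA methyltransferase DNMT3B rose from 48.6 and 55.2 to 143 and 105 CPM (1.26, SE 0.22, adjusted p = 0.000391). The deacetylase HDAC4 fell from 50.8 and 74.5 to 22.7 and 14.9 CPM (-1.73, SE 0.28, adjusted p = 0.000174). G1 cyclins, CDK inhibitors and E2F genes had 27 tested members, of which 2 passed higher and 2 lower, and a median log2 fold change of -0.11 (1 passed without empty vector replicate 1, 2 without empty vector replicate 2). The share of calls in this G1 list was 14.8%, against 8.88% of all genes. CDKN1C, an inhibitor of cyclin-dependent kinases, rose from 0.358 and 2.06 to 7.37 and 7.03 CPM (2.57, SE 0.55, adjusted p = 0.00306). CDK6, a G1 kinase, fell from 2.5 and 2.44 to 0.307 and 0.176 CPM (-3.22, SE 0.73, adjusted p = 0.00453). CDKN1C did not pass without empty vector replicate 1 (1.79, adjusted p = 0.129), and its value moved without empty vector replicate 2 (4.26). CDK6 did not pass without 18 kDa replicate 2 (adjusted p = 0.0555). The BCL2 family and death receptors had 31 tested members, of which 2 passed higher and 2 lower, and a median log2 fold change of -0.23 (2 passed without empty vector replicate 2). Their share of calls was 12.9%, against 8.88% of all genes. BIK, a pro-death member of the BCL2 family, rose from 3.75 and 3.56 to 18.9 and 18.1 CPM (2.33, SE 0.39, adjusted p = 0.000234). The inflammatory caspase CASP4 fell from 8.76 and 9.19 to 0.921 and 1.76 CPM (-2.74, SE 0.49, adjusted p = 0.000458).

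Mucins, milk and S100 proteins had 14 tested members, of which 3 passed higher and 2 lower, and a median log2 fold change of -0.16 (3 passed without empty vector replicate 1, 3 without empty vector replicate 2, 3 without 18 kDa replicate 2). S100A8, a calcium-binding alarmin, rose from 1.97 and 1.13 to 5.68 and 10.9 CPM (2.39, SE 0.59, adjusted p = 0.0157). The unfolded protein response list had 30 tested members, of which 1 passed higher and 2 lower, and a median log2 fold change of -0.32 (1 passed without empty vector replicate 1, 6 without 18 kDa replicate 2). The share of calls in that list was 10%, near the 8.88% of all genes. CREB3L1, a membrane-bound transcription factor of secretory cells, fell from 2.68 and 1.88 to 0.153 and 0.351 CPM (-3.10, SE 0.76, adjusted p = 0.00805). CREB3L1 did not pass without empty vector replicate 1 (adjusted p = 0.0591) or 18 kDa replicate 1 (0.073). Glycolysis and hypoxia genes had 38 tested members, of which 3 passed higher and 2 lower, and a median log2 fold change of 0.14 (3 passed without empty vector replicate 2, 3 without 18 kDa replicate 1, 3 without 18 kDa replicate 2). The glycolysis and hypoxia list had 13.2% called, against 8.88% of all genes. Of 50 tested subunits of the respiratory chain, 4 passed (8%, against 8.88% of all tested genes), all higher, with a median of 0.28. In this list 0 passed without empty vector replicate 1, 1 without empty vector replicate 2, 2 without 18 kDa replicate 2. The list of nuclear partners, transport and export genes of FGF2, which includes NUDT6, had 17 tested members, of which 0 passed higher and 1 lower. Its share of calls was 5.88%, below the 8.88% of all genes, and its median log2 fold change was -0.08. The call was that of the import carrier KPNA2, from 352 and 462 to 252 and 239 CPM (-0.73, SE 0.22, adjusted p = 0.035). KPNA2 did not pass without empty vector replicate 1 (adjusted p = 0.0838), 2 (0.51), 18 kDa replicate 1 (0.124) or 2 (0.14).

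**Figure D3:**
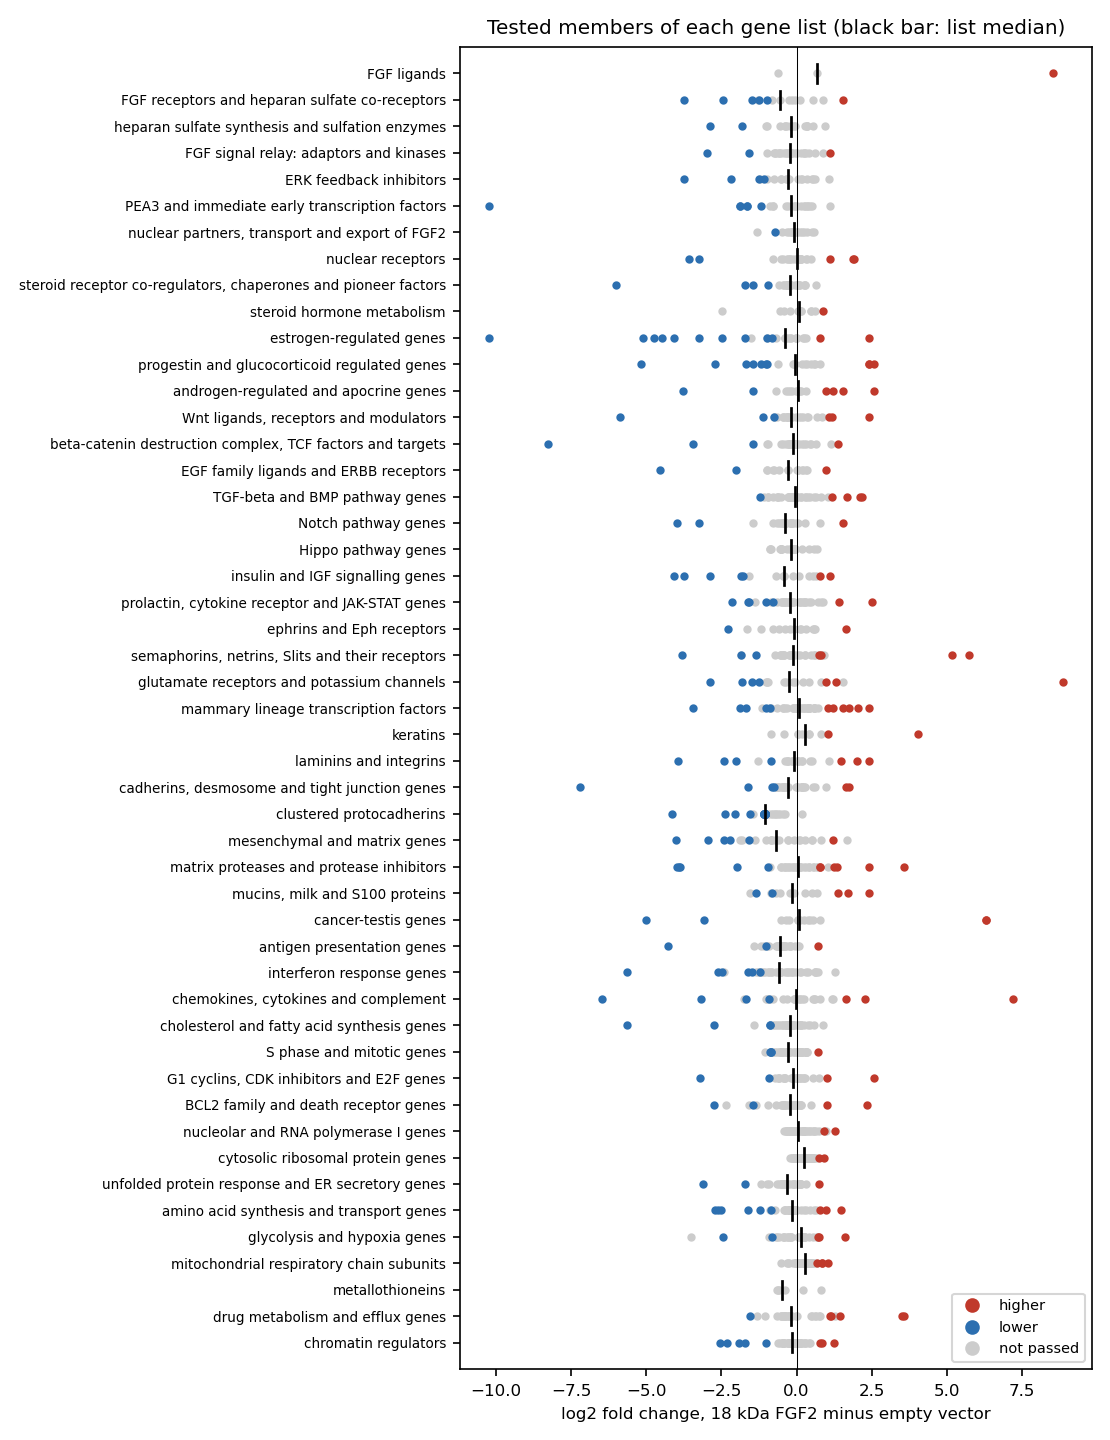
Log2 fold change (18 kDa FGF2 minus empty vector) of each tested member of the 49 gene lists, with members that passed higher in red, those that passed lower in blue, others in grey and a black bar at each list's median. Clustered protocadherins lie together at about -1, with the lowest list median, -1.06.

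A few genes had no count in 1 of the groups. By the rule of no count in both 18 kDa libraries and at least 20 in each empty vector library, 4 genes were found: EGR3, LEF1, ZDHHC4 and PTGER3. ZDHHC4, a palmitoyltransferase on chromosome 7, was at 35 and 38.6 CPM with the empty vector, at least 74.6-fold lower with 18 kDa FGF2. PTGER3, a prostaglandin E2 receptor, was at 4.29 and 3.75 CPM and at least 8.15-fold lower. GRIK4 was the 1 gene that met the reverse rule. Short of 0, the psoriasis-region gene PSORS1C2 went from 41.7 and 57.8 to 0 and 0.527 CPM and was 202-fold lower (interval 68.6 to 980.4, adjusted p = 3.9e-09). Its log2 fold change moved from -7.53 to -6.47 without 18 kDa replicate 1 and to -11.16 without replicate 2, where the library left is at 0. FUT3, a fucosyltransferase of Lewis antigens, went from 14.8 and 13.1 to 0.153 and 0.351 CPM and was 57-fold lower (interval 19.1 to 279, adjusted p = 6.47e-07). Entrez 100505503, for which the tables give no symbol, rose from 10.2 and 6.57 to 108 and 106 CPM (3.67, SE 0.28, adjusted p = 1.61e-09).

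Further large gains in reads, by the rule for named genes, were those of FLNA, TMSB10 and RHOB. FLNA, a filamin that crosslinks actin, rose from 262 and 323 to 969 and 794 CPM (1.59, SE 0.23, adjusted p = 3.67e-05). TMSB10, a thymosin that binds actin monomers, rose from 172 and 209 to 766 and 791 CPM (2.03, SE 0.24, adjusted p = 2.55e-06; neighbours 0.58). RHOB, a small GTPase, rose from 253 and 245 to 944 and 758 CPM (1.77, SE 0.23, adjusted p = 8.64e-06; neighbours 0.66). Cytoplasmic actin ACTG1 rose from 1749 and 1912 to 3575 and 2879 CPM (0.82, SE 0.25, adjusted p = 0.0411). ACTG1 did not pass without empty vector replicate 1 (adjusted p = 0.405), 2 (0.225) or 18 kDa replicate 1 (0.257). Among the largest losses was the BMP antagonist NBL1, from 555 and 707 to 128 and 112 CPM (-2.40, SE 0.24, adjusted p = 1.46e-07), whose counts overlap those of the readthrough gene MICOS10-NBL1 and are uncertain. ZNF703, a luminal transcription factor, fell from 357 and 288 to 83.3 and 81.5 CPM (-1.97, SE 0.22, adjusted p = 7.5e-07).

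Most of the genes that passed with 18 kDa FGF2 were not shown to differ from the 22.5 kDa isoform. Of the 1165, 92 (7.9%) also passed in the direct test of 22.5 against 18 kDa FGF2, where 207 of all tested genes (1.58%) passed. Both tests use the same 18 kDa libraries, so genes chosen by the first are not independent of the second, and the 7.9% is a description. The other 1073 did not pass the direct test, which does not show that the isoforms acted alike. The count of 207 moved with the libraries, to 135 without 18 kDa replicate 1, 733 without 18 kDa replicate 2, 66 without 22.5 kDa replicate 1 and 37 without 22.5 kDa replicate 2. Of 36 named genes that passed this test, 20 still passed without any 1 library.

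Some genes fell with 18 kDa FGF2 and were higher with 22.5 kDa than with 18 kDa FGF2. LFNG was at 30.4 and 47.9 CPM with 22.5 kDa FGF2, after 3.53 and 4.39 CPM with 18 kDa (difference 22.5 minus 18 kDa 3.30, SE 0.34, adjusted p = 1.18e-06). DTX4 was at 53.3 and 43.1 CPM (2.81, SE 0.28, adjusted p = 6.2e-07) and CD74 at 31 and 35.5 CPM (3.12, SE 0.33, adjusted p = 1.33e-06). ZDHHC4 was at 25 and 35.1 CPM against 0 with 18 kDa FGF2. FAM20C, a kinase of secreted proteins, fell from 23.4 and 26.5 to 2.3 and 1.93 CPM and was at 19.1 and 19.8 CPM with 22.5 kDa FGF2 (3.18, SE 0.39, adjusted p = 1.09e-05). LFNG, ZDHHC4 and FAM20C lie at the start of chromosome 7, where neighbouring genes had lower medians with 18 kDa than with 22.5 kDa FGF2, as given below. What share of their differences goes with that stretch was not tested. FGFR3 was at 27.5 and 36.5 CPM with 22.5 kDa FGF2 (1.23, SE 0.29, adjusted p = 0.0241). That difference did not pass without 18 kDa replicate 1 (1.31, adjusted p = 0.0554), 22.5 kDa replicate 1 (1.40, 0.0899) or 2 (0.99, 0.215). Its fall against the empty vector did not pass without empty vector replicate 1 (adjusted p = 0.0591) or replicate 2 (adjusted p = 0.062). LFNG, DTX4, CD74, ZDHHC4 and FAM20C passed between the isoforms without any 1 library.

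Others were higher with 18 kDa than with 22.5 kDa FGF2. CLU was at 916 and 1037 CPM with 22.5 kDa FGF2 (-1.35, SE 0.24, adjusted p = 0.00198). FLNA was at 309 and 349 CPM (-1.42, SE 0.23, adjusted p = 0.000554) and SDC1 at 373 and 481 CPM (-0.997, SE 0.23, adjusted p = 0.0214). SOD3, an extracellular superoxide dismutase, rose from 8.58 and 11.8 to 43.4 and 37.2 CPM with 18 kDa FGF2 and was at 9.16 and 8.02 CPM with 22.5 kDa (-2.23, SE 0.33, adjusted p = 0.000173). ACKR2, a chemokine scavenger, rose from 17.7 and 13.5 to 72.6 and 50.6 CPM and was at 15.3 and 13 CPM (-2.12, SE 0.29, adjusted p = 6.8e-05). Entrez 100505503 was at 11.1 and 12 CPM (-3.21, SE 0.27, adjusted p = 2.78e-08). In the opposite sense, ASS1, which makes argininosuccinate, fell with 18 kDa FGF2 from 245 and 312 to 132 and 109 CPM but was at 907 and 1050.1 CPM with 22.5 kDa FGF2 (3.02, SE 0.24, adjusted p = 1.3e-08). Its fall did not pass without empty vector replicate 2 (adjusted p = 0.0524). TGFB1 fell with 18 kDa FGF2 and lower still with 22.5 kDa, to 5.5 and 8.22 CPM (-2.66, SE 0.28, adjusted p = 1.18e-06). SDC1 lost the call between the isoforms without 18 kDa replicate 1 (-0.82), 22.5 kDa replicate 1 (-0.85) or 22.5 kDa replicate 2 (-1.22), and without 22.5 kDa replicate 2 SOD3 (-2.16) and ACKR2 (-2.04) lost it.

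**Figure D4:**
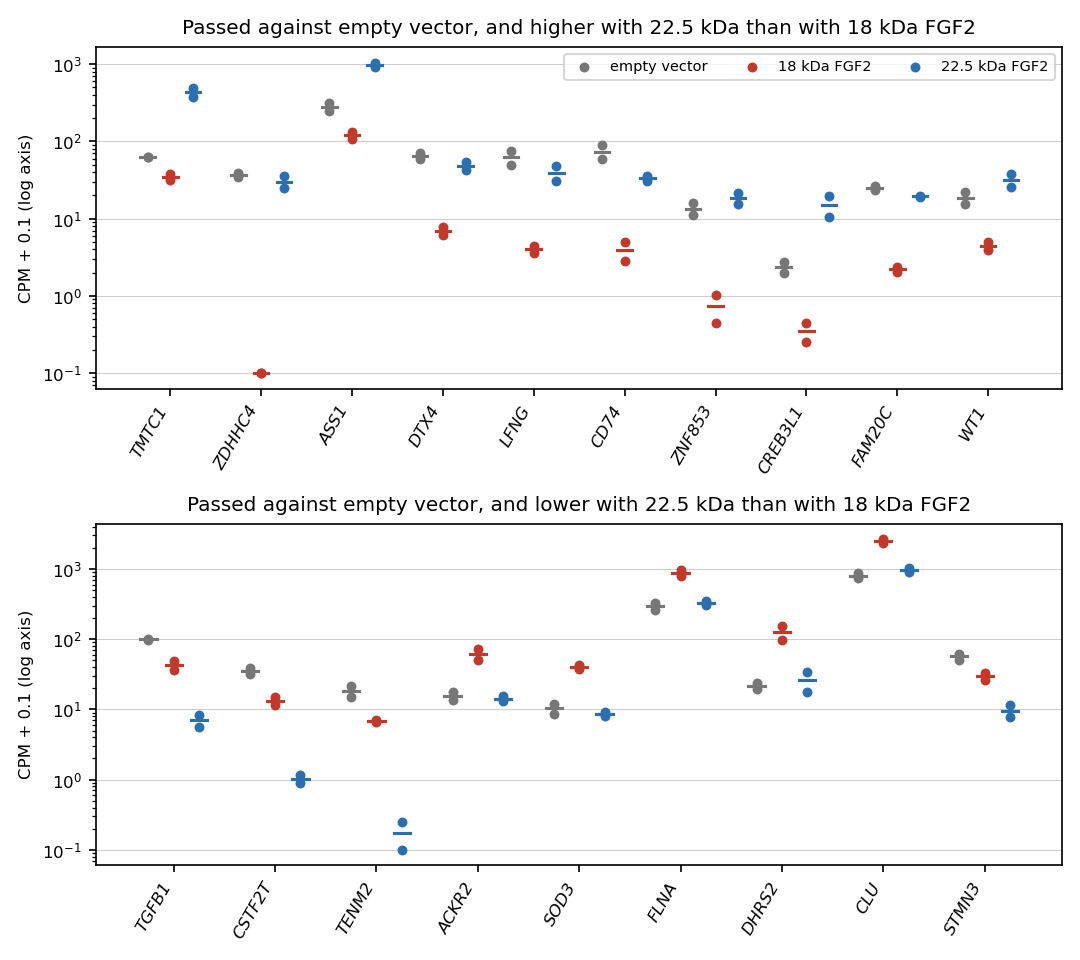
CPM plus 0.1 (log axis) of each library, by group, for genes that passed against the empty vector and were higher (upper panel) or lower (lower panel) with 22.5 kDa than with 18 kDa FGF2. LFNG, DTX4, CD74 and ZDHHC4 lie far lower with 18 kDa FGF2 than in either other group.

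Higher genes were unevenly spread over the chromosomes. Tested genes were placed in order along each chromosome by a RefSeq table of another build and cut into 272 blocks of about 50 neighbours, a division made after the data had been seen. In 17 blocks the median log2 fold change was above 0.35. Of these, 10 were among the first 12 blocks of chromosome 2, from its start to NFE2L2. The others lay on the end of chromosome 7, from KLRG2 to DYNC2I1, on the start of chromosome 20, from C20orf96 to RALGAPA2, and on the start of chromosome X, from PLCXD1 to USP27X. These blocks held 193 higher genes among 821 tested, 23.5%, against 2.78% in all other blocks, and 35.9% of all higher genes. Since the same values chose the blocks, these shares are descriptions. SDC1, TMSB10, RHOB, ARAF and TIMP1 lie in them. In 6 blocks the median was below -0.35, among them the first 3 of chromosome 7, from FAM20C to EPDR1, at -0.46, -0.68 and -0.46. Of 290 tested genes in these 6 blocks, 54 were lower (18.6%), against 4.46% in all other blocks. The block of chromosome 5 from PCDHGA3 to SLC26A2 held 20 of the 54, all of them gamma protocadherins. Without it, 34 of 243 genes were lower (14%). Both 18 kDa replicates lay below 0 in those chromosome 7 blocks, at -0.38 and -0.59, -0.80 and -0.43, and -0.59 and -0.27, while with 22.5 kDa FGF2 the blocks were at -0.09, 0.07 and 0.03. LFNG, FAM20C, ZNF853 and ZDHHC4 lie in this stretch. DNA was not measured, so the part that gene copy number has in these values was not tested.

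**Figure D5:**
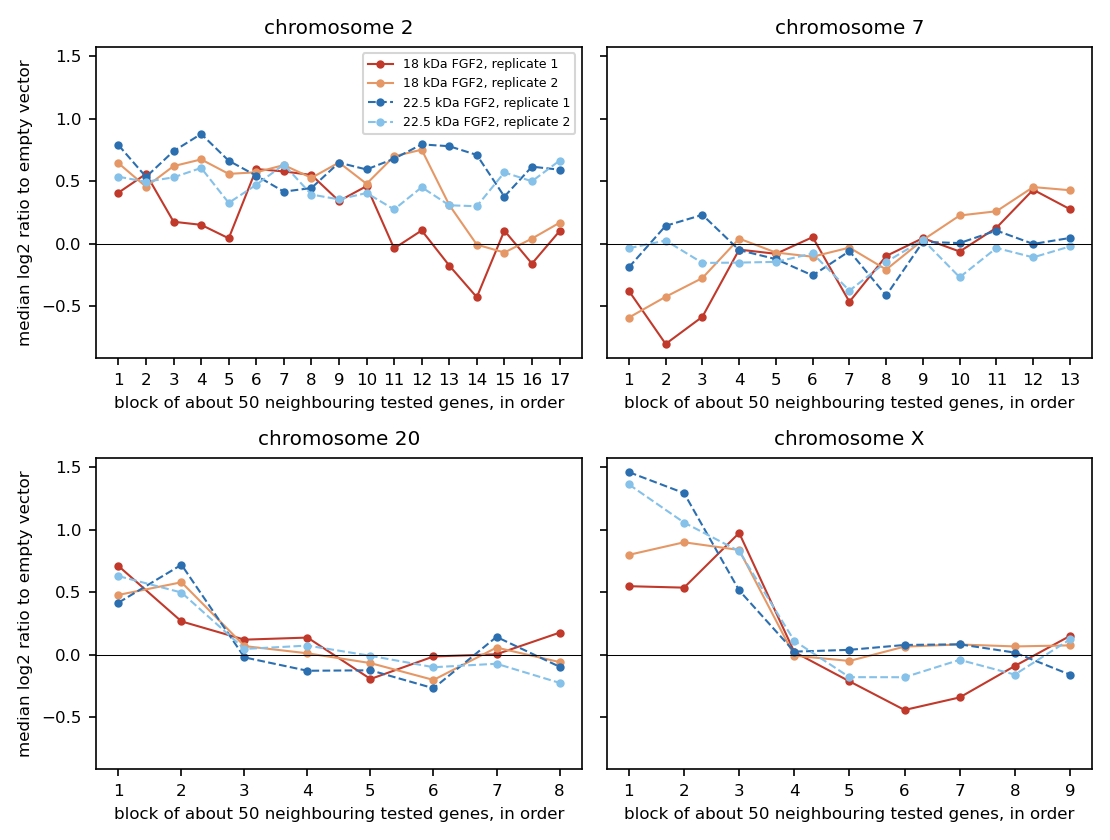
Median log2 ratio to the empty vector (vertical axis) in blocks of about 50 neighbouring tested genes, in order along chromosomes 2, 7, 20 and X (horizontal axis), with 1 line per FGF2 library. The first 3 blocks of chromosome X lie above 0 in all 4 libraries, and the first 3 blocks of chromosome 7 lie below 0 in both 18 kDa libraries.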

How the data were processed

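RNA was measured by directional paired-end sequencing of polyadenylated transcripts in T47D-YA cells, per the labels' protocols. The authors deposited whole-number read counts per gene for 6 libraries, keyed by Entrez identifier, with no normalization. Genome build hg19 and edgeR are named in the submitters' processing notes, and no source used here gives the aligner, the counter or the strand setting. Symbols and gene order came from a RefSeq table of build GRCh38, and 23308 genes received a symbol. Gene positions in that build set the order of genes for the blocks and the medians of neighbours. Positions are printed only for the 2 sequences. Mitochondrially encoded genes are not used here.

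Counts of all 6 libraries were fitted with edgeR 4.0.16 in R 4.3.3 (TMM factors, filterByExpr, 13124 genes kept, quasi-likelihood F-test, Benjamini-Hochberg adjustment over all tested genes, threshold 0.05), with 3 residual degrees of freedom and a biological coefficient of variation of 0.199. With 2 libraries a group, an exact permutation test of a single value cannot go below p = 0.333, two-sided. Nothing in the labels says that replicates were separate cultures, and a p-value therefore covers the spread between these libraries, which may be technical. Where 1 group had no count, the fold was bounded by taking 3 counts per library as its level, and exact binomial 95% intervals of summed counts were used for ratios with 1 to 3 counts; both cover counting error only. Medians of 0 of the 49 lists differed with uncounted genes at their bound. In simulated data of 12900 genes for this comparison, 38 of 100 genes with 2-fold changes and 90 of 100 with 4-fold changes were recovered, with 5 false calls. These counts were drawn with the same trend of spread in every group, and only genes with a mean above 2 CPM were changed. The real replicates differed more with 18 kDa FGF2 than with the empty vector, so the simulation does not measure false calls in the real data.

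The lists and the genes of interest were chosen with earlier results of these data known. Genes named are FGF2, NUDT6, the FGF receptors, PGR, ESR1 and CTNNB1. To these were added up to 5 passing members of each list by p, or its most abundant members where fewer than 2 passed. Also named are genes among the 15 largest fold changes or CPM differences in each direction, genes with no count in 1 group and at least 20 in each library of the other, and genes that passed in both tests. FOS, STC2, the markers that passed and some genes that did not pass were chosen after their values were seen, and some genes that the rule names are not reported here. Alternatives were DESeq2 1.42.0, limma-voom (limma 3.58.1), other size factors and filters, the 4 libraries alone, a minimum fold of 1.5, a replicate block and each library left out.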

Additional observations from a re-analysis of the deposited data

How the results depend on the processing

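The count of 1165 genes for 18 kDa FGF2 against the empty vector lay between 970 and 1463 with other size factors, tests and filters and with the 4 libraries alone. It was 496 against a minimum fold of 1.5 (33.9% of them higher, against 46.1%) and 617 to 1440 with 1 library left out. The count of 207 genes between the isoforms was 109 with upper-quartile factors, 445 with no filter beyond 1 count, 78 against a minimum fold of 1.5 and 37 to 733 with 1 library left out. With the replicate number as a block, 1210 genes passed against the empty vector and 337 between the isoforms. The numbers were not used as pairs, since deviations of same-numbered libraries correlated at -0.28 between empty vector and 18 kDa FGF2, at 0.41 between empty vector and 22.5 kDa FGF2, and at -0.44 between the isoforms. Of 225 named genes that passed, 127 passed under every alternative and 135 without any 1 library. The sign changed for 5 named genes that had not passed: CTNNB1 (0.0713 without empty vector replicate 1, 0.21 without 18 kDa replicate 1), CYP1B1 (0.45 without empty vector replicate 1), HSD17B12 (-0.19 without empty vector replicate 2, -0.15 without 18 kDa replicate 2), TEAD3 (0.14 without 18 kDa replicate 2) and WWC1 (0.0709 without 18 kDa replicate 2). With 1 library left out, these values ranged from -0.43 to 0.21 for CTNNB1, from -1.14 to 0.45 for CYP1B1, from -0.19 to 0.63 for HSD17B12, from -0.20 to 0.14 for TEAD3 and from -0.23 to 0.0709 for WWC1. The cause of these shifts was not tested. With 2 libraries a group, leaving 1 out assumes that the lone library varies like the others, and changes near 2-fold were often missed in simulated counts.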
